A study of Microtus ochrogaster with 40 samples.

Results

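The nuclei described here came from the nucleus accumbens of 21 male prairie voles, of which 11 had been paired with a female mate and 10 with a male peer. These are the M libraries among the 40 libraries of the series, chosen by the sex and pairing type in their labels. Prairie voles (Microtus ochrogaster) are rodents that form lasting bonds with a partner. Pairing with an animal they had not met lasted 16 days, after which the brains were frozen, and no strain, age, allele or drug is given. Nuclei were isolated from each animal separately and sequenced as 1 droplet library per animal, so the animal is the replicate. Every male of both groups was paired, and there was no unpaired group. The labels do not name the partners, so male peers may have been paired with each other and need not be independent. No test here held a term for couples.

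The accumbens is the part of the ventral striatum where dopamine, opioid and oxytocin signals meet. Its main neurons are spiny projection neurons, which carry dopamine receptors of the D1 or D2 type and release GABA. In prairie voles, oxytocin and dopamine receptors in this region are known to take part in forming a preference for the partner. The comparison asks whether pairing with a mate rather than with a peer goes with differences in nuclear RNA in males.

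Before any comparison, 1 library stood apart. Male mate 2, which carries library number 4 in the labels, held 12519 barcodes and was the only M library with barcodes under 500 unique molecular identifiers (UMIs, the counted RNA molecules). Of its barcodes 6112 were kept, with a median of 662 UMIs, while the median per library was 1300 to 2201 in the other 20. Estimates without it are given for the genes with the lowest p in the sums over all, neuron-like and glia-like barcodes, and elsewhere where they moved by more than 1.5 times. Over the 21 libraries 98180 barcodes were kept, with 1793 (male peer 1) to 7975 (male mate 11) per library and 3002288 to 13606227 UMIs. Pairs of M libraries shared between 3 and 145 barcode sequences, at most 2.22% of the smaller library.

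The library numbers in the labels were spread unevenly over the groups. Library numbers 1 to 10 hold 4 of the mates and 2 of the peers, 11 to 20 hold 3 mates and no peer, and each of the last 2 blocks of 10 numbers holds 2 mates and 4 peers. The labels do not say what the numbers stand for. No comparison can be made within numbers 11 to 20. With these blocks as a term in the fits described below, edgeR called 0 genes in each of the 9 sums of barcodes, and estimates under that fit are given where they moved by more than 1.5 times or changed sign.

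No difference between the groups was detected in depth. Median UMIs per barcode averaged 1624 ± 393 (SD, n = 11) in mates and 1594 ± 190 (SD, n = 10) in peers (two-sided permutation test with 100000 resamples, p = 0.845, adjusted p = 0.956 over 5 library measures). Leaving male mate 2 out raised the mean of the mates to 1720 (adjusted p = 0.528 by the same permutation test).

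Each kept barcode was called neuron-like or glia-like from marker UMIs, with at least 3 of them and at least 75% from 1 side. Among neuron-like barcodes, spiny neuron-like and glutamate neuron-like ones were told apart in the same manner, and among glia-like barcodes the astrocyte-like, oligodendrocyte-like, oligodendrocyte precursor-like and microglia-like ones. Neuron-like barcodes made up 64.7% ± 3.58 of a mate library and 65.1% ± 5.01 of a peer library. Glia-like barcodes made up 23.5% ± 7.88 in mates and 24.3% ± 6.31 in peers. Their lowest share was 3.19%, in male mate 2, which also had the highest unsplit share of 27.7%. With that library left out, the glia-like share of the mates was 25.6% ± 4.3. The shares themselves depend on depth and on the rule. After thinning each barcode to 500 UMIs, neuron-like barcodes averaged 48.3% in mates and 47.7% in peers. With a stricter split (at least 5 marker UMIs and 90% from 1 side) they were 34.6% and 36.2%. With only barcodes of at least 1000 UMIs they were 83.0% and 82.8%, and glia-like ones 6.13% and 6.83%.

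Spiny neurons were the main neurons in both groups, as the labelled tissue would hold. They were 66.2% ± 11.8 of neuron-like barcodes in mates and 65.5% ± 13.7 in peers. Glutamate neurons, whose cell bodies lie mainly in cortex and other regions near the accumbens, were 17.7% ± 6.14 in mates and 18.5% ± 9.87 in peers. The peers held both ends of this range, with 0.5% in male peer 5 and 35.9% in male peer 8. Those libraries were also the highest and the lowest peers for spiny neurons, at 90.2% and 42% of neuron-like barcodes. Among glia-like barcodes, astrocyte-like ones were 49.2% ± 5.47 in mates and 49.2% ± 6.23 in peers, and microglia-like ones 8.55% ± 3.63 and 8.27% ± 4.27. None of 9 shares differed by a two-sided permutation test (adjusted p = 0.992 for each), and none did without male mate 2 (adjusted p = 0.839 for each). A share depends on how many nuclei of each type were recovered, which cannot be told apart from the makeup of the tissue. Depth moved these levels too. After thinning to 500 UMIs, glutamate neurons were 10.6% of neuron-like barcodes in mates and 10.6% in peers. With only barcodes of at least 1000 UMIs, microglia-like ones were 0.92% of glia-like barcodes in mates and 1.03% in peers.

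**Figure D1:**
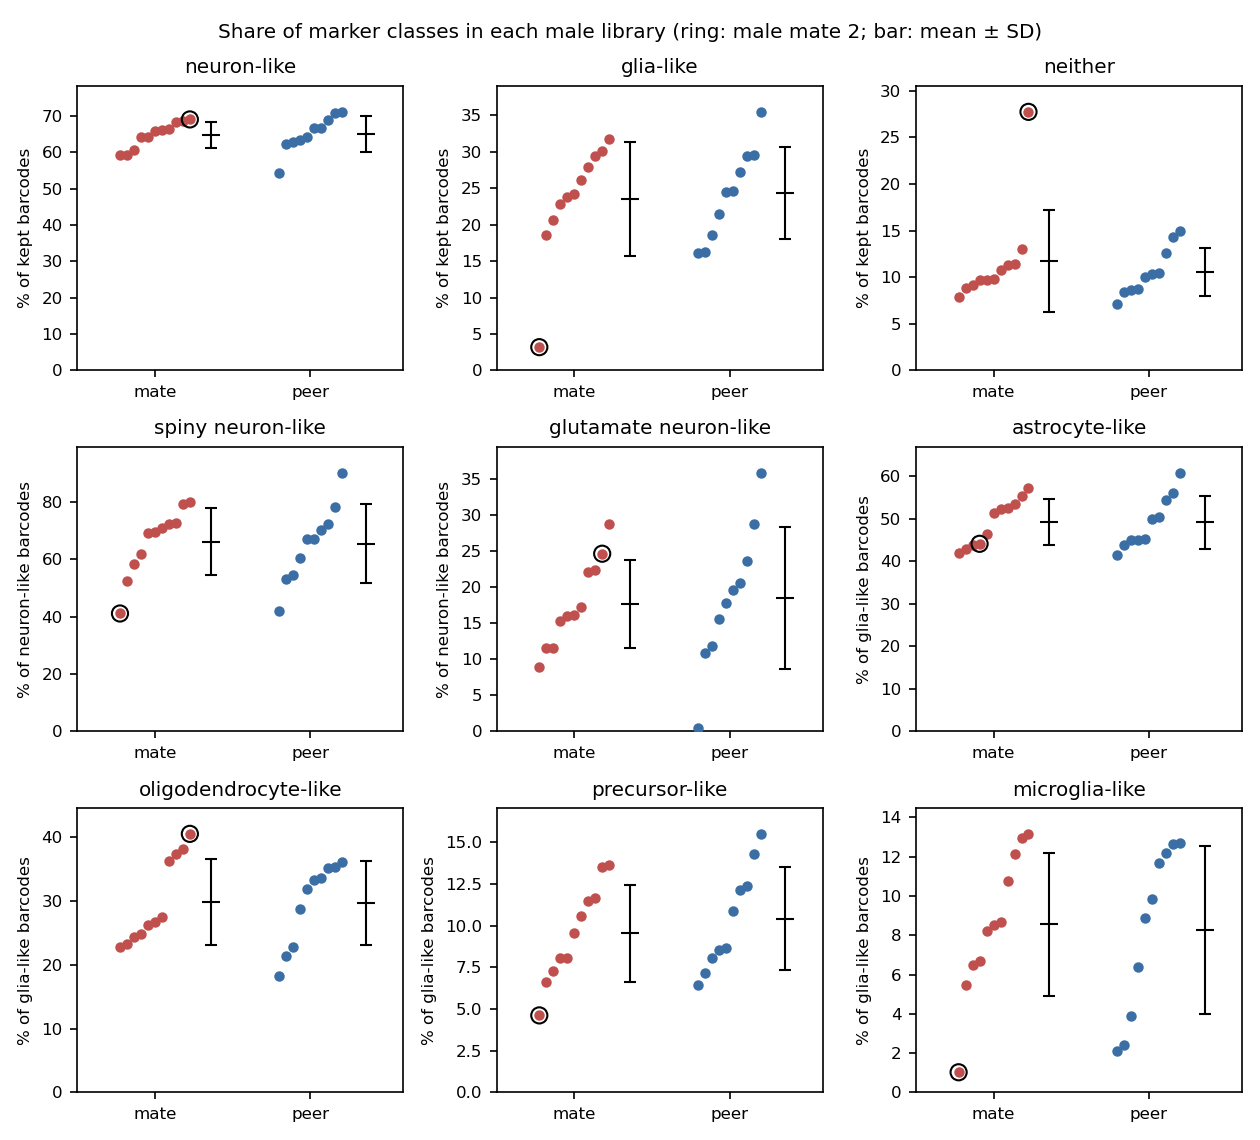
Share of each marker class (y axis, percent of kept, neuron-like or glia-like barcodes) in the 11 male mate and 10 male peer libraries. Each dot is an animal, the bar is the mean ± SD and the ring marks male mate 2, whose glia-like share of 3.19% lies under every other library; the groups overlap in all 9 classes.

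For expression, counts were summed per animal and tested gene by gene with edgeR's quasi-likelihood test, with Benjamini-Hochberg adjustment over all genes tested. A gene was called at an adjusted p under 0.05. Levels are in CPM, counts scaled to a common library total by TMM factors. No gene was called between male mates and male peers over all kept barcodes, where 13240 genes were tested and 163 (1.23%) had an unadjusted p under 0.05. In neuron-like barcodes 0 of 12312 genes were called and 150 (1.22%) had an unadjusted p under 0.05. In glia-like barcodes 0 of 10200 were called and 230 (2.25%) had an unadjusted p under 0.05. All 3 shares lie under the 5% that evenly spread p-values would give if no gene differed, and the reason was not tested. The DESeq2 test gave 0 calls in these 3 sums as well, and 177, 157 and 211 genes at that unadjusted level.

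After removal of male mate 2 edgeR called 0 genes in each of these sums, with 127, 111 and 237 at an unadjusted p under 0.05. In none of the genes tested did every mate lie on 1 side of every peer. For 84.8% of genes over all barcodes, 87% in neuron-like and 79.1% in glia-like barcodes, the 95% interval of the fold change lay within 1.5-fold in either direction. Such an interval does not show that levels were equal, and it is not a limit of detection. Genes with estimates beyond 1.5-fold, such as Cfap206 and Iqck in neuron-like barcodes, were not called either.

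The genes named next are the 8 with the lowest p in each sum. None was called, and every one of them had an adjusted p of 1.00 in edgeR's test, so their values are descriptions. Sums over all barcodes and over neuron-like barcodes share most of their UMIs and are not independent.

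Cfap206 encodes a protein of cilia and flagella. In neuron-like barcodes its level was 2.84 CPM in the lowest mate, 5.74 at the median and 10.8 in the highest, and 3.91, 13.3 and 16.5 CPM in peers. Of the 10 peers 6 lay above the highest mate, male mate 11, while the others overlapped with the mates. Mates over peers, the log2 fold change was -0.90 (SE 0.27), and it was -0.90 without male mate 2. Spiny neuron-like barcodes gave -0.999 (SE 0.28) and glutamate neuron-like ones -0.45 (SE 0.29), and the difference between these classes was not tested.

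Markers of ciliated cells were looked at beside Cfap206. Over all barcodes the 5 tested of 7 measured markers had lower estimates in mates, with a median log2 fold change of -0.52, and that of Spag17, a protein of the motile cilium's core, was -1.34 (SE 0.53, p = 0.0184 and adjusted p = 1.00 by edgeR's test). The summed level of the 7 was 11.5 to 35.3 CPM in mates and 14.6 to 90.9 CPM in peers, highest in male peer 1. In neuron-like barcodes their sum was 7.32 to 24.7 CPM in mates and 14.5 to 24.0 CPM in peers. Their part in the Cfap206 values was not tested.

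Ebpl, a relative of the sterol isomerase Ebp, was at 1.5, 3.09 and 5.64 CPM (lowest, median and highest mate) in neuron-like barcodes, and at 1.71, 6.45 and 12.7 CPM in peers. All 11 mates lay below the mean of the peers and 5 peers lay above the highest mate. The lowest peer, male peer 1, lay within the range of the mates. Its estimate was -0.86 (SE 0.27), or -0.82 without male mate 2, and in spiny neuron-like barcodes it was -0.96 (SE 0.23).

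Rwdd2a, named for its RWD domain, had the lowest p in neuron-like barcodes (p = 0.00191, adjusted p = 1.00 in edgeR's test). Its levels were 8.46, 14.2 and 19.4 CPM in mates and 14.8, 19.1 and 23 CPM in peers. Male mate 2 was the lowest mate, 7 mates lay below the lowest peer, and 5 peers lay above the highest mate. This gave a log2 fold change of -0.40 (SE 0.12), and -0.35 without male mate 2.

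Jmjd8, a protein with a Jumonji C domain, went the other way. Its levels in neuron-like barcodes were 19.3, 24.7 and 33 CPM in mates and 14.3, 18.6 and 30.2 CPM in peers. Of the peers 8 lay below the lowest mate, while male peer 3 reached into the upper range of the mates. Its log2 fold change was 0.39 (SE 0.12), and 0.41 without male mate 2.

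The other neuronal genes of this rank were low in level. S1pr3, a receptor for sphingosine-1-phosphate, was at -0.68 (SE 0.22) on the log2 scale, with medians of 1.82 CPM in mates and 3.26 CPM in peers. Nog, the secreted inhibitor of bone morphogenetic proteins known as noggin, had -0.50 (SE 0.17), and 6 of the peers lay above the highest mate at 4.45 CPM. Galnt15, an enzyme that starts O-linked glycans, had -0.78 (SE 0.26). Without male mate 2 these 3 estimates were -0.78, -0.51 and -0.86. Iqck had an estimate of 1.02 (SE 0.33), with its high values in 4 mates, those with library numbers 14, 16, 20 and 22. Male mates 5, 6, 7 and 8 were at 10.9, 7.13, 14.8 and 10.7 CPM, and every other mate or peer lay between 1.49 and 4.48 CPM. The estimate was 1.07 without male mate 2 and 0.51 with the blocks of library numbers as a term.

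Over all barcodes Cfap206, Ebpl, Jmjd8 and Rwdd2a were again among the 8. The other genes of the 8 had higher estimates in mates. Ikbkb, the kinase that activates the NF-kB pathway, was at 0.24 (SE 0.08) on the log2 scale, with levels of 25.4 to 36.3 CPM in mates and 20.8 to 28.7 CPM in peers. Anxa6, an annexin that binds membranes with calcium, had 0.25 (SE 0.09), and male peer 3, at 121.5 CPM, stood above the next peer at 98.3 CPM. Ppan, a factor of ribosome assembly, had 0.21 (SE 0.07) and Tmem201, a protein of the inner nuclear membrane, 0.23 (SE 0.08). Their estimates without male mate 2 were 0.23, 0.24, 0.17 and 0.20.

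Among glia-like barcodes the lowest p belonged to Rgcc, a regulator of the cell cycle. Its levels were 14.2, 44.5 and 88.5 CPM in mates (lowest, median, highest) and 23.5, 29.5 and 41.9 CPM in peers. Of the 11 mates 7 lay above the highest peer, and the lowest of all was male mate 2. Its log2 fold change was 0.66 (SE 0.17, p = 0.000547, adjusted p = 1.00 by edgeR's test), and 0.70 without male mate 2. It was 0.65 (SE 0.22) in oligodendrocyte precursor-like and 0.57 (SE 0.21) in astrocyte-like barcodes. With the blocks of library numbers as a term the precursor-like estimate was 0.34. In oligodendrocyte-like barcodes Rgcc had 23 UMIs over all mates and 21 over all peers, too few to be tested.

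Kdelr2, the receptor that returns proteins to the endoplasmic reticulum, was at 49.6, 96.1 and 117 CPM in mates and 108, 126 and 148 CPM in peers. Of the peers 7 lay above the highest mate, and 6 mates lay below the lowest peer. Its log2 fold change was -0.35 (SE 0.09), and -0.32 without male mate 2, which was the lowest library. With only barcodes of at least 1000 UMIs it was -0.16. Klhl4 was at 15.1, 20.2 and 25 CPM in mates and 21.5, 27.5 and 32.6 CPM in peers, so 8 peers lay above the highest mate. Its log2 fold change was -0.41 (SE 0.13), with or without male mate 2.

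Estimates lower in mates also belonged to Prr18, at -0.67 (SE 0.19), and to Zdhhc12, a palmitoyltransferase, at -0.48 (SE 0.15). Higher estimates in mates belonged to Pex10, a ring-finger protein of peroxisome assembly, at 0.45 (SE 0.14), to Coa8, an assembly factor of cytochrome oxidase, at 0.40 (SE 0.12), and to Mroh1 at 0.50 (SE 0.15). For Pex10 the lowest mate was at 40.5 CPM and 7 of the peers were below it. Without male mate 2 these estimates were -0.64, -0.45, 0.43, 0.37 and 0.45, in the order named. With only barcodes of at least 1000 UMIs Pex10 was at 0.27. Olig2, a transcription factor of the oligodendrocyte lineage singled out after its values were seen, had -0.37 (SE 0.13, p = 0.00722, adjusted p = 1.00 by edgeR's test) in glia-like barcodes, and -0.34 without male mate 2. It is 1 of 7 precursor markers, all with lower estimates in mates and a median log2 fold change of -0.16. Of 8 oligodendrocyte markers 7 had lower estimates, with a median of -0.17. Both lists are among the markers that decide which barcodes are glia-like, so their levels there are a description. Leaving out male mate 2 gave medians of -0.10 and -0.12. With the blocks as a term the precursor markers kept 7 lower estimates at a median of -0.14, while 5 of the 8 oligodendrocyte markers were lower, at a median of -0.02. The summed level of the 8 was 8532 CPM in male mate 2, 12429.5 to 33199.5 CPM in the other mates, and 10969.5 to 27309.9 CPM in peers. The part of this glial mix in the values of single genes was not tested.

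**Figure D2:**
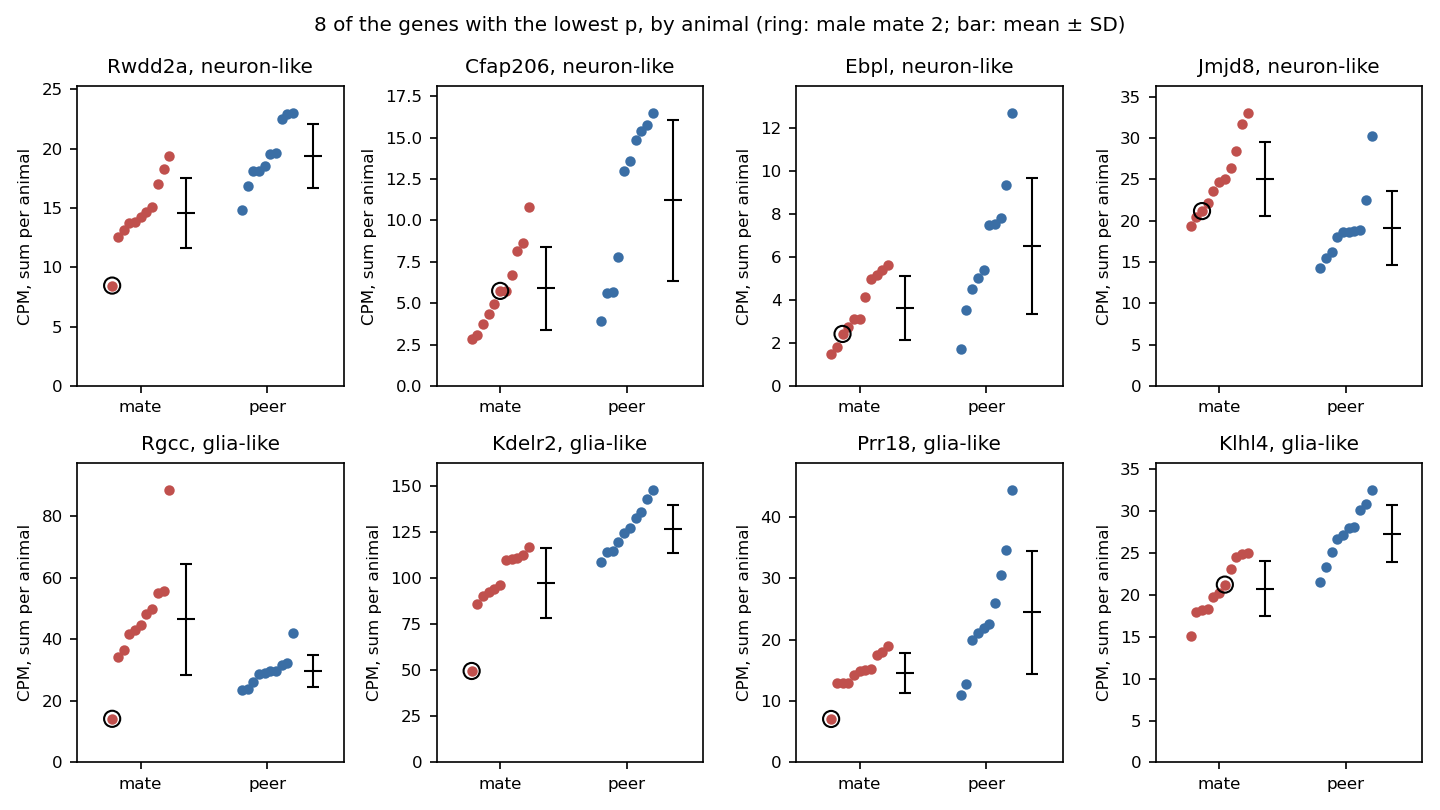
Level (y axis, CPM of the counts summed per animal) of 8 genes with the lowest p, with neuron-like barcodes above and glia-like barcodes below. Each dot is an animal, the bar is the mean ± SD and the ring marks male mate 2; in Cfap206, 6 of 10 peers lie above the highest mate, and in every gene the groups overlap.

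The smaller classes were tested in the same way, and edgeR called 0 genes in each. The share with an unadjusted p under 0.05 was 1.69% of 11627 genes in spiny neuron-like barcodes, 2.29% of 10185 in glutamate neuron-like, 2.28% of 7970 in astrocyte-like, 3% of 5429 in oligodendrocyte-like, 3.25% of 2305 in precursor-like and 2.01% of 1794 in microglia-like barcodes. DESeq2 called 0 in each as well, with 176, 239, 142, 145, 56 and 19 genes at an unadjusted p under 0.05. Classes with fewer than 20 barcodes in an animal were left out for that animal, which gave 9 peers for glutamate neurons, 10 mates for precursors, and 10 mates and 8 peers for microglia. Male mate 2 did not enter the last of these classes or the precursors.

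In glutamate neuron-like barcodes Olfml2b, an olfactomedin-like secreted protein, had a log2 fold change of -0.79 (SE 0.18). Its levels were 21.6, 29.5 and 47.4 CPM in mates and 18.2, 58.9 and 73.9 CPM in peers, and 5 of the 9 peers lay above every mate. Male peer 1 had the lowest level of all. Leaving out male mate 2 gave -0.86, with an adjusted p of 0.654 by edgeR's test, and over all alternatives the adjusted p ran from 0.0638 to 1.00. Rasa4, which switches off Ras, had 1.03 (SE 0.28), and 9 of the mates lay above the highest peer at 9.88 CPM. Anxa6 had 0.34 (SE 0.09) in these barcodes. Their estimates with that library left out were 1.01 and 0.34. In spiny neuron-like barcodes the third gene beside Ebpl and Cfap206 was Stx2, a syntaxin of membrane fusion, at 0.45 (SE 0.14), or 0.40 without male mate 2. Ebpl and Cfap206 were then at -0.95 and -1.004.

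Microglia-like barcodes gave the lowest adjusted p of the 9 sums. It belonged to Mgat1, the enzyme that starts complex N-linked glycans, at 0.338 in edgeR's test. Its levels were 17.8, 176 and 347 CPM in mates and 128, 380 and 486 CPM in peers, from 74 and 159 UMIs in all. Its estimate was -1.10 (SE 0.26) on the log2 scale, and 5 of the peers lay above the highest mate. Cd74, the invariant chain of MHC class II, had -0.996 (SE 0.33), with 6 mates below the lowest peer at 536 CPM. Txndc11, a thioredoxin-domain protein, had -0.49 (SE 0.17). None of the 3 was called in the main fit. With no filter on low counts edgeR's test called Mgat1 (adjusted p = 0.0155) and Cd74 (adjusted p = 0.00187), and no other alternative called them.

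In astrocyte-like barcodes Entpd5, an enzyme that removes phosphate from nucleotides in the endoplasmic reticulum, had -0.64 (SE 0.18), Hint3 -0.54 (SE 0.16) and Tmem179b -0.51 (SE 0.15). For Hint3, 9 of the mates lay below the lowest peer at 33.8 CPM. In oligodendrocyte-like barcodes Ptn, the growth factor pleiotrophin, had -0.65 (SE 0.19), Zfp36l2, which promotes decay of mRNA, -0.60 (SE 0.18), and the lysosomal protein Laptm4a -0.43 (SE 0.13). Precursor-like barcodes gave Rgcc, Caskin1 at 0.62 (SE 0.21), a scaffold that binds the synaptic protein Cask, and Fbxw4 at 0.46 (SE 0.16), an F-box protein. Without male mate 2 the astrocyte-like estimates were -0.63, -0.55 and -0.49 and the oligodendrocyte-like ones -0.60, -0.61 and -0.39. All of these genes had an adjusted p of 1.00 in edgeR's test.

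Genes tied to pair bonding were taken from a list of 28 receptors, peptides and binding proteins. Of these, 25 were measured, and 21 passed the filter on low counts in neuron-like barcodes. None was called. An unadjusted p under 0.05 was found for 2 of the 21, both lower in mates. Of all genes tested 1.22% had one in either direction, and 0.585% were lower in mates at that level. The median log2 fold change of the 21 was -0.05, and that of all genes -0.01. The direction of the list turned under both alternatives: its median was 0.0035 without male mate 2, with 11 of 21 higher, and 0.045 with the blocks as a term, with 14 higher. With male mate 2 left out, 1 of the 21, OXTR, had an unadjusted p under 0.05. In the fit with the blocks 2 had one, OXTR at -0.82 (p = 0.0377) and Nr3c2 at -0.22 (p = 0.0408), each with an adjusted p of 1.00 by edgeR's test, and Oprm1 did not.

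OXTR, the receptor for oxytocin (gene identifier ENSMOCG00000002867), was the candidate with the lowest p. Its level in neuron-like barcodes was 2.39 CPM in the lowest mate, 4.34 at the median and 6.91 in the highest. In peers the same values were 1.99, 5.75 and 16.3 CPM. All 11 mates lay below the mean of the peers, but male mates 2, 4 and 5, at 6.35, 5.97 and 6.91 CPM, lay above the median of the peers. Of the peers 4 lay above the highest mate, while the lowest peer lay below all mates. Mates over peers, the log2 fold change was -0.84 (SE 0.29, 95% interval -1.43 to -0.24), with p = 0.00784 and an adjusted p of 1.00 by edgeR's test. It rests on 331 UMIs in mates and 544 in peers. It was -0.88 without male mate 2. Spiny neuron-like barcodes gave -0.98 (SE 0.40), and the highest peer there was male peer 6, at 18.2 CPM. In glutamate neuron-like barcodes OXTR did not pass the filter on low counts and was not tested. Its level there was 0.863, 6.66 and 7.94 CPM (lowest, median and highest mate) and 2.18, 8.34 and 11.4 CPM in 9 peers, from 100 UMIs in mates and 109 in peers.

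DRD1A, the D1 receptor, was at 207, 330 and 513 CPM in mates and 224, 365 and 476 CPM in peers, with a log2 fold change of -0.05 (95% interval -0.37 to 0.27). DRD2, the D2 receptor, had -0.10 (-0.48 to 0.29) and Drd3 0.07 (-0.34 to 0.48). The D1 estimate turned to 0.0035 without male mate 2, and that of Drd3 was 0.11. With the blocks as a term DRD1A and DRD2 turned to 0.033 and 0.042, and Drd3 was at 0.045. These intervals do not show that the levels were equal.

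Of the opioid genes, Oprm1, the mu receptor, had levels of 81.6, 98.5 and 157 CPM in mates and 83, 129 and 210 CPM in peers. The groups overlapped over most of their range and male peer 3 was the highest. Its log2 fold change was -0.31 (SE 0.14, p = 0.0369, adjusted p = 1.00 by edgeR's test), and -0.32 (SE 0.13) in spiny neuron-like barcodes. Without male mate 2 it was -0.29 in neuron-like barcodes, with an unadjusted p of 0.0587, and with the blocks as a term -0.22, with p = 0.166 before adjustment. The kappa receptor Oprk1 had 0.10 (SE 0.17) and the delta receptor Oprd1 0.09 (SE 0.11). Their peptides Pdyn (dynorphin) and Penk (enkephalin) had -0.11 (SE 0.19) and 0.06 (SE 0.21). Oprk1 was at 0.15, Pdyn at -0.036 and Penk at 0.15 without male mate 2. With the blocks as a term they were at 0.19, 0.12 and 0.20, and Oprd1 at 0.16. Penk ran from 748 CPM in male mate 2 to 3141 CPM in male mate 9, and from 997 to 2511 CPM in peers.

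The stress peptide Crh had a log2 fold change of 0.03 (SE 0.33), at 2.08 to 10.1 CPM in mates and 1.71 to 12.1 CPM in peers. Its receptors Crhr1 and Crhr2 had 0.07 (SE 0.22) and 0.19 (SE 0.14), and its binding protein Crhbp -0.08 (SE 0.15). Of the hormone receptors, Pgr, for progesterone, had 0.03 (SE 0.10), Nr3c2, for mineralocorticoids, -0.11 (SE 0.10), and Prlr, for prolactin, -0.21 (SE 0.26). The cannabinoid receptor Cnr1 had -0.03 (SE 0.16). Among peptides of spiny neurons and interneurons, Tac1 had -0.07 (SE 0.18), Cartpt 0.08 (SE 0.19), Sst -0.19 (SE 0.19) and Npy -0.29 (SE 0.21). With male mate 2 left out, Cartpt was at 0.15, Tac1 at 0.0051, Crhr1 at 0.035, Crhbp at -0.047, Pgr at 0.015 and Cnr1 at -0.045. With the blocks as a term Crhr2, Crhbp, Pgr, Tac1, Sst and Npy changed sign, to -0.0062, 0.10, -0.035, 0.14, 0.11 and 0.041. In the same fit Crh was at 0.21, Crhr1 at 0.13, Nr3c2 at -0.22, Prlr at -0.38, Cnr1 at -0.051 and Cartpt at 0.28. All 8 interneuron markers had lower estimates in mates in neuron-like barcodes, with a median log2 fold change of -0.24 and none at an unadjusted p under 0.05. The median was -0.21 without male mate 2, and with the blocks as a term it was -0.04, with 5 lower and 3 higher. Their summed level was 421 to 1238 CPM in mates and 589 to 1210 CPM in peers, so the ranges overlapped, and fewer interneurons or less RNA in each cannot be told apart in these sums.

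Avpr1b (vasopressin), Esr1 and Esr2 (estrogen) and Hcrtr1 (orexin) are receptors that stayed below the filter. Esr1 had 45 UMIs over the neuron-like barcodes of all mates and 51 over those of all peers.

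**Figure D3:**
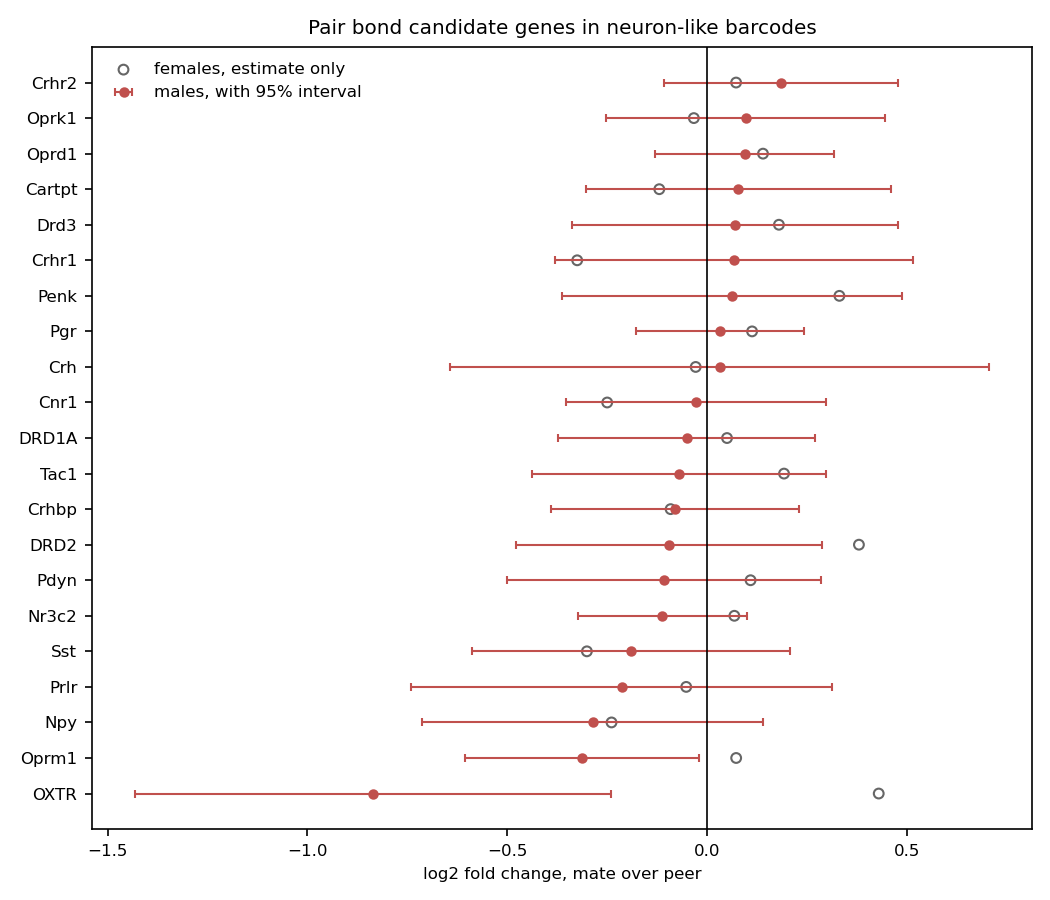
Log2 fold change of mate over peer (x axis) for 21 pair bond candidates in neuron-like barcodes. Filled dots are males with their 95% interval, and open dots are the estimates in females; only the intervals of OXTR and Oprm1 lie wholly below 0, and that of Oprm1 does not without male mate 2 or with the blocks as a term.

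All 18 genes of dopamine and cAMP signalling in spiny neurons had a 95% interval within 1.5-fold in neuron-like barcodes, none was called and none had an unadjusted p under 0.05. Ptpn5, the striatal phosphatase STEP, had a log2 fold change of 0.04 (95% interval -0.12 to 0.20) at mean levels of 1052 CPM in mates and 1023 CPM in peers, and 0.0059 with the blocks as a term. Ppp1r1b, the phosphoprotein DARPP-32, had -0.10 (-0.45 to 0.24), or -0.06 without male mate 2 and 0.03 with the blocks as a term. Immediate early genes, which neurons switch on within minutes of activity, were less precise. Of 20 genes 10 had higher and 10 lower estimates in neuron-like barcodes and none had an unadjusted p under 0.05. Their median was -0.03, or -0.0095 without male mate 2. In the fit with the blocks 7 were higher and 13 lower, at a median of -0.04, and Npas4, named after its values were seen, had an unadjusted p of 0.0422 at -0.67. Fos had -0.34 (95% interval -0.92 to 0.24) and Arc -0.10 (-0.68 to 0.49), and with the blocks as a term -0.57 and -0.35. Junb was at 19.9, 25.5 and 36.8 CPM in mates and 23.9, 32.5 and 38 CPM in peers, with -0.23 (SE 0.11), or -0.13 with the blocks as a term.

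Over all barcodes, all 22 glutamate receptor subunits, 13 GABA receptor subunits and 17 genes of vesicle release had 95% intervals within 1.5-fold and none had an unadjusted p under 0.05. Their median log2 fold changes were 0.02, -0.02 and -0.00, beside -0.00 for all genes tested. Of 18 synaptic adhesion genes 16 had an interval within 1.5-fold, with a median of 0.02. With the blocks as a term, 19 of 22 glutamate receptor subunits, 13 of 13 GABA receptor subunits, 13 of 17 vesicle genes and 16 of 18 adhesion genes had higher estimates, at medians of 0.06, 0.04, 0.03 and 0.07. In that fit 48.4% of all genes tested were lower. Higher estimates were also found for 9 of 11 neuron, 11 of 11 spiny neuron and 7 of 8 glutamate neuron markers, but for 3 of 8 interneuron markers. Without male mate 2 the glutamate receptor, GABA receptor, vesicle release and adhesion lists had medians of 0.00037, -0.01, -0.02 and 0.0084. In that fit 1 of the 22 glutamate receptor subunits had an unadjusted p under 0.05, as did 0.96% of all genes tested. The perineuronal matrix, glucocorticoid responsive, circadian clock and cholesterol synthesis lists had medians of 0.00, -0.01, 0.01 and -0.04, and the 6 heat shock genes 0.06, with no gene at an unadjusted p under 0.05. Leaving out male mate 2, these 5 medians were 0.03, 0.02, 0.03, -0.04 and 0.11, and with the blocks as a term 0.06, -0.08, -0.0013, 0.03 and 0.19.

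Genes of energy supply and translation mostly had slightly lower estimates in mates, fewer of them with blocks of library numbers as a term. Of 57 nuclear genes of the respiratory chain tested over all barcodes, 56 had a lower estimate in mates, with a median log2 fold change of -0.13, while 49.9% of all genes tested had a higher one. None was called, and 2 had an unadjusted p under 0.05 and were lower in mates. Of all genes tested 1.23% had one in either direction, and 0.574% were lower in mates at that level. Uqcrc2, a core subunit of complex III, had -0.17 (SE 0.07) at 212 to 281 CPM in mates and 240 to 318 CPM in peers. Ndufa3, of complex I, had -0.27 (SE 0.11). The 13 genes of the mitochondrial genome all had lower estimates, with a median of -0.12, and so had 20 of 20 ribosomal protein genes, also with a median of -0.12. Within classes, 52 of 53, 12 of 13 and 20 of 20 genes of these lists were lower in neuron-like barcodes, and 48 of 54, 13 of 13 and 20 of 20 in glia-like ones. Barcodes were kept in part by their share of mitochondrial UMIs, so the levels of the 13 mitochondrial genes are a description. The median mitochondrial percent of a library averaged 0.318 in mates and 0.320 in peers (two-sided permutation test, p = 0.929, adjusted p = 0.956). That is a median over barcodes and another measure than the summed level of the 13 genes. The summed level averaged 5206 CPM in mates and 5791 CPM in peers over all barcodes, and this sum was not tested.

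The spread between animals within a group was wide. The summed level of the respiratory chain list was 6110 to 10089.5 CPM in mates and 6620 to 10578.5 CPM in peers, with medians of 7084 and 7868 CPM. Male mate 10 was the highest mate and male peer 2 the highest peer. The ribosomal list ran from 1401 to 2461 CPM in mates and from 1563 to 2574 CPM in peers. Male mate 2 was at 1402 CPM. Genes of 1 list share the libraries they were measured in, so the count of 56 is not 56 separate observations. Leaving out male mate 2, the medians were -0.11, -0.11 and -0.09 for the respiratory chain, mitochondrial genome and ribosomal lists, and 56 of 57, 13 of 13 and 20 of 20 genes still had lower estimates.

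With blocks of library numbers as a term, the medians of these 3 lists came to -0.05, -0.07 and -0.06, with 42 of 57, 13 of 13 and 19 of 20 genes lower. In neuron-like barcodes 38 of 53, 9 of 13 and 14 of 20 were then lower, at medians of -0.05, -0.05 and -0.04, where 49.4% of all genes tested were lower. The counts in glia-like barcodes were 33 of 54, 12 of 13 and 14 of 20, at medians of -0.04, -0.06 and -0.07, where 49.6% of all genes were lower. No gene of the 3 lists had an unadjusted p under 0.05 in that fit.

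Myelin genes had a median log2 fold change of -0.21 over all barcodes, with 12 of 13 lower and none at an unadjusted p under 0.05. The median was -0.13 without male mate 2, which had few glia-like barcodes, and -0.03 with the blocks as a term. Chromatin regulators had a median of 0.06, and 15 of 16 had a higher estimate, each with an interval within 1.5-fold. That median was 0.05 without male mate 2 and 0.02 with the blocks as a term, with 13 of 16 higher in each. In glia-like barcodes all 11 spiny neuron markers had higher estimates in mates, with a median of 0.19, and their sum was 4185 CPM in male mate 2 against 788 to 1785 CPM in the other mates and 656 to 1742 CPM in peers. Without male mate 2, 8 of 11 were higher and the median was 0.00, and with the blocks as a term all 11 were higher at 0.29. Cartpt, a peptide of spiny neurons, had 0.54 (SE 0.22, p = 0.0208, adjusted p = 1.00 by edgeR's test) in glia-like barcodes and 0.52 without that library, and the part of neuronal RNA in glia-like barcodes in it was not tested.

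**Figure D4:**
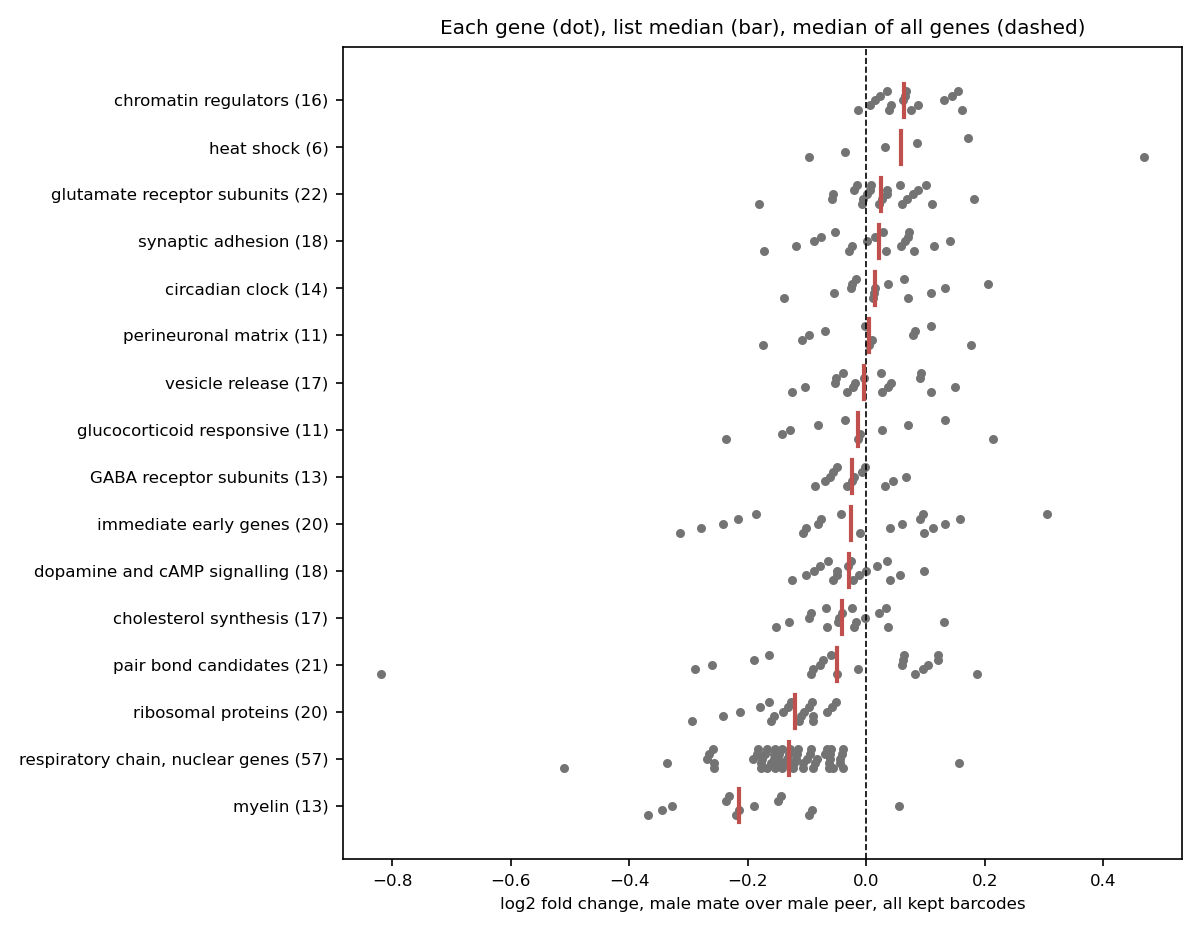
Log2 fold change of male mate over male peer (x axis) over all kept barcodes for the tested genes of 16 lists, with the number of genes in brackets. Dots are genes, red bars list medians and the dashed line the median of all genes; 56 of 57 respiratory chain genes lie below 0, at a median of -0.13.

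Whether a pairing difference is particular to males needs a test against females. The F libraries, 11 mates and 8 peers, were fitted with the males in 1 model that tested how far the pairing effect differed by sex. edgeR called 0 of 13788 genes over all barcodes, where 268 (1.94%) had an unadjusted p under 0.05, 0 of 12874 in neuron-like and 0 of 11061 in glia-like barcodes, where 259 and 252 did. DESeq2 called 0 in each, with 278, 274 and 241. Across genes, the log2 fold changes of males and females had a Pearson r of 0.23 over all barcodes, 0.17 in neuron-like and 0.20 in glia-like barcodes, over 13240, 12312 and 10200 genes. Genes are not independent replicates, and both sexes share the gene models and the way libraries were made. As partners are not named, the female mates may be partners of these males. Each male mate has the library number that follows that of a female mate. The model held no term for couples or library numbers.

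Of the 16 genes with the lowest p in male neuron-like and glia-like barcodes, 7 had estimates of the other sign in females, 3 of 8 in neuron-like and 4 of 8 in glia-like barcodes. Over all genes the signs differed for 41.5% and 41.6%, so the count stands near the background. These genes were chosen on the male estimate, which also enters the difference between the sexes, and the differences given here are a description. Rgcc in glia-like barcodes was -0.15 (SE 0.17) in females, and its difference between the sexes was 0.81 (p = 0.00159, adjusted p = 1.00 by edgeR's test). Pex10 was -0.22 (SE 0.13) in females, with a difference of 0.66 (p = 0.000622, adjusted p = 1.00). OXTR in neuron-like barcodes was 0.43 (SE 0.41) in females, a difference of -1.26 with p = 0.0333. Cfap206 had estimates of the same sign in both sexes, -0.68 (SE 0.38) in females, and a difference of -0.22 with p = 0.671. None of these differences was called in the fit across all genes.

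The genes with the lowest p for that difference were Abca16, Scrg1 and Mpv17 over all barcodes and Prom2, Fancb and Rasa4 in neuron-like barcodes. In glia-like barcodes they were Pex10, Rgcc and the gene ENSMOCG00000010003, which carries no symbol. Abca16, an ABC transporter, was at 0.52 CPM at the median in male mates and 1.09 CPM in male peers, from 48 and 94 UMIs in all. Its difference between the sexes was -1.97 (SE 0.47). Abca16 and Scrg1 did not pass the filter on low counts in the fit of males alone. Fancb, of the Fanconi anemia DNA repair complex, was -0.44 in male neuron-like barcodes and 0.41 (SE 0.18) in those of females. Rasa4 was 0.93 in males and -0.63 (SE 0.34) in females. Each of them had an adjusted p of 1.00 in edgeR's test.

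**Figure D5:**
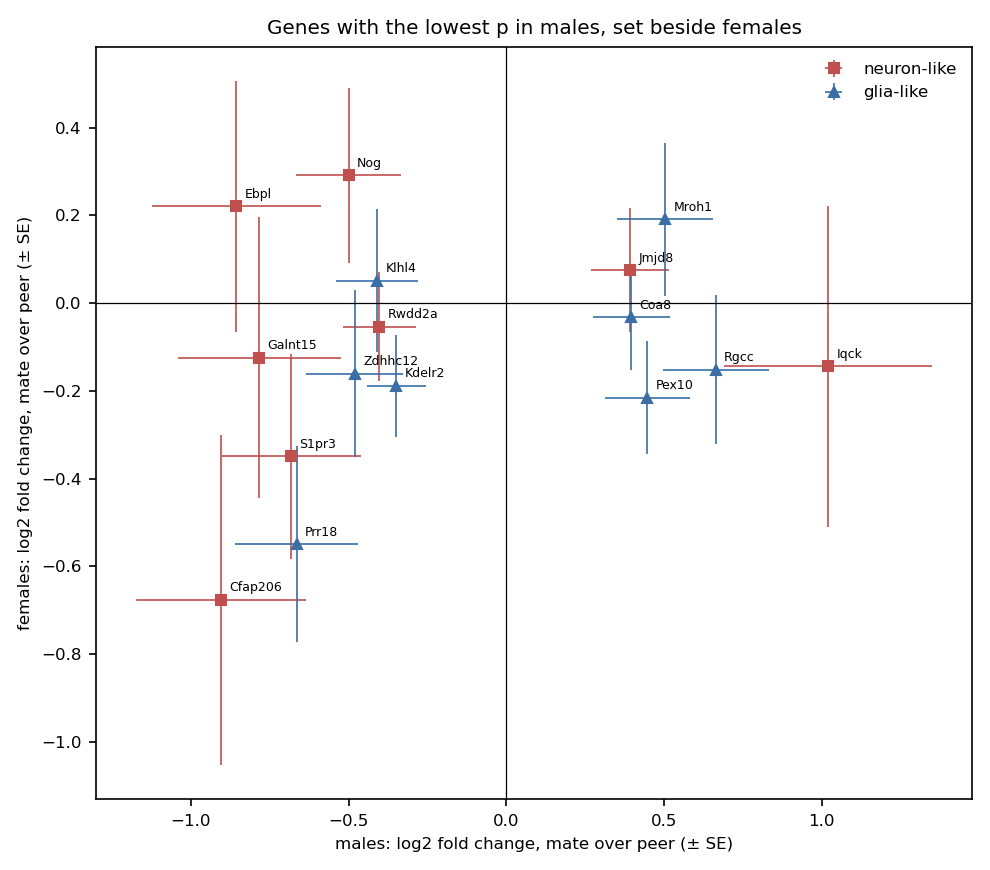
Log2 fold change of mate over peer in males (x axis) and females (y axis) for the 16 genes with the lowest p in male neuron-like (squares) and glia-like barcodes (triangles), with standard errors as bars. Genes were chosen on the x axis; Cfap206 and Prr18 lie below 0 in both sexes, while Rgcc and Pex10 lie above 0 in males and below 0 in females.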

How the data were processed

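Single-nucleus RNA was counted in 40 animals, of which the 21 males enter the main comparison. The deposited files hold raw UMI counts per gene and barcode, which the authors made with Cell Ranger 3.1.0, per the submitters' processing notes. The genome build, annotation and rule for choosing barcodes are not given in the sources used here. The files list 19130 genes, of which 3807 carry no symbol, and 13332 names were found among RefSeq symbols of MicOch1.0.

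Kept barcodes held 500 or more UMIs, with no more than 5% of them from the 13 mitochondrial genes. A barcode with 3 or more marker UMIs, at least 75% of 1 side, was called neuron-like or glia-like. Spiny and glutamate neurons needed 2 marker UMIs at 75%, and glial types 60% of the glial marker UMIs. No doublet caller was run: barcodes with mixed markers stayed unsplit and entered only the sum over all barcodes. Free RNA was not removed.

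Counts were summed per animal and fitted with edgeR 4.0.16 (R 4.3.3), with TMM factors, its filter on low counts, males alone, and Benjamini-Hochberg adjustment over all genes of a sum. DESeq2 1.42.0, other filters, normalizations and covariates were alternatives. The scripts were tested on simulated data. Shares were compared by permutation tests over animals with 100000 resamples. Intervals on folds are 95%. Sums in a class used animals with at least 20 barcodes. Libraries held 3002288 to 13606227 kept UMIs, which limits low genes. Named genes are the 8 with the lowest p in each of the 3 main sums, 3 in each smaller class, 3 for the difference between the sexes, every measured candidate and, of each other list, up to 2 members with the lowest p. Genes outside this rule (Olig2, Spag17, Fos, Arc, Npas4, Ppp1r1b, Ptpn5 in neurons, OXTR, Oprm1, Cartpt, Rgcc, Cfap206 and Ebpl in further sums, and, of those called without a filter on low counts, Galr1, Sparc, Oprm1, Mybpc1, Blnk, Adamts12 and ENSMOCG00000012629) were chosen after their values were seen. The libraries, members and lists were chosen with earlier results of these data known. Replicate numbers are names in label order and pair no animals.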

Additional observations from a re-analysis of the deposited data

Results flagged for a closer look

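Among 122 sets of 10 or fewer male peers searched (library measures, shares and named genes), 12 (9.84%) had a highest or lowest animal set apart from the rest by Dixon's test. Chance gives about 5% of independent sets, but these reuse the same 10 peers, hold some genes in overlapping sums and include genes chosen for a low p, so the share is not to be read against that figure. Sets of 11 mates were not searched by this test, so no mate set apart in them is listed here. Male peer 1 kept 1793 barcodes, far below the next peer at 3747. Male peer 8 had a neuron-like share of 54.2%, below the next at 62.2%.

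Male peer 3 was set apart in 4 sets. Its level was 121.5 CPM for Anxa6 over all barcodes, 165.4 CPM for Anxa6 in glutamate neuron-like barcodes, 30.2 CPM for Jmjd8 in neuron-like barcodes and 145.3 CPM for Cartpt in neuron-like barcodes. For Anxa6 and Jmjd8 this animal lay among the mates. Male peer 8 was highest for Rgcc in glia-like barcodes at 41.9 CPM and for Hint3 in astrocyte-like barcodes at 60.8 CPM. Male peer 6 was highest in glia-like barcodes for Grin2a, an NMDA receptor subunit, at 31.4 CPM and for Gabra3, a GABA receptor subunit, at 34.5 CPM. Male peer 2 was lowest for Txndc11 in microglia-like barcodes at 256 CPM and highest for Ebpl in glutamate neuron-like barcodes at 24.1 CPM.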

How the results depend on the processing

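Neither edgeR nor DESeq2 called a gene in the 9 male sums or the 3 tests of the sex difference under the alternatives run, except in 2 sums with no filter on low counts. There edgeR called 4 genes in precursor-like barcodes (Galr1, Sparc, Oprm1 and Mybpc1) and 8 in microglia-like barcodes, where Mgat1 was at -1.09 (adjusted p = 0.0155) and Cd74 at -0.96 (adjusted p = 0.00187). Over their alternatives the adjusted p of Mgat1 ran from 0.0155 to 0.999 and that of Cd74 from 0.00187 to 1.00, and the cause was not tested. With no filter on low counts, every gene with any UMI was tested. Calls and counts in that setting come from a larger set of genes than the main ones, and they are not shares of the same set. Genes at an unadjusted p under 0.05 differed by more than 1.5 times from the main count in these cases. Without the filter there were 387 over all barcodes (main 163), 392 in neuron-like (150), 556 in glia-like (230), 488 in spiny (197), 591 in glutamate (233), 539 in astrocyte-like (182), 619 in oligodendrocyte-like (163), 627 in precursor-like (75) and 579 in microglia-like barcodes (36), and 488, 522 and 512 for the sex difference (268, 259 and 252). With blocks of library numbers as a term there were 129 in glutamate, 106 in oligodendrocyte-like and 85 in microglia-like barcodes. With all 4 groups in 1 fit, 125 of 3621 genes in precursor-like and 55 of 2365 in microglia-like barcodes were at that level. The main fits tested 2305 and 1794 genes there, so these counts are not shares of the same set either. With at least 1000 UMIs there were 129 in glia-like barcodes, where genes were filtered anew. By DESeq2 there were 19 in microglia-like barcodes.

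Of 1017 log2 fold changes of named genes under alternatives, 20 changed sign. No gene was called in the main fits. The alternatives refit largely the same males in overlapping sums, so this count is not a rate over independent values. In neuron-like barcodes without male mate 2, DRD1A was at 0.0035 and Tac1 at 0.0051. With the blocks as a term, DRD1A was at 0.033, DRD2 at 0.042, Pdyn at 0.12, Crhr2 at -0.0062, Crhbp at 0.10, Pgr at -0.035, Tac1 at 0.14, Sst at 0.11 and Npy at 0.041. With the glutamate marker level as a term, DRD1A was at 0.018, DRD2 at 0.01, Crh at -0.054 and Crhr1 at -0.0011. Under the stricter split Crhr1 was at -0.029. Without male peer 1, Penk was at -0.00015 and Crh at -0.039. In glia-like barcodes Ptpn5 was at -0.0062 without male mate 2 and Nsdhl at -0.0044 with at least 1000 UMIs.

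Differences mate minus peer changed sign as follows, in percentage points for shares and in their own units for library measures, and none was called. Without male mate 2 the glia-like share was at 1.24, unsplit at -0.41 and oligodendrocyte-like at -0.93. After thinning to 500 UMIs neuron-like was at 0.66, glutamate at 0.042 and oligodendrocyte-like at -0.14. Under the stricter split astrocyte-like was at -0.0794 and microglia-like at -0.0792. With at least 1000 UMIs neuron-like was at 0.19, spiny at -0.30, oligodendrocyte-like at -2.26 and microglia-like at -0.11, kept barcodes at -32.8, kept UMIs at -241829, median UMIs at -40.7, median genes at -21.8 and median mitochondrial percent at 0.0138.

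The list medians without male mate 2 and with blocks of library numbers were chosen after seeing the data, as were the values of Fos, Arc, Npas4 and Ppp1r1b there. Ppp1r1b changed sign, to 0.033, with the blocks as a term. No paired analysis was possible because the labels give no replicate numbers that tie a mate to a peer. Depth limits the precursor-like and microglia-like sums, with 2305 and 1794 genes tested. How far depth limits low genes such as OXTR was not tested.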

Other observations

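Of the genes that edgeR called without a filter on low counts, all were lower in mates except ENSMOCG00000012629, which had 31 UMIs in 1 mate and 1 UMI in 1 peer. Sparc, a secreted matrix protein, had 343 UMIs in the precursor-like barcodes of 10 mates and 563 in those of 10 peers, with at least 1 UMI in every animal, and a log2 fold change of -0.75. In microglia-like barcodes Blnk, an adaptor of immune receptor signalling, had 479 UMIs in 10 mates and 975 in 8 peers, with UMIs in every animal, and a log2 fold change of -0.99. Adamts12, a secreted metalloprotease, had 87 UMIs in 5 mates and 217 in 6 peers. With the filter none of the 3 was called by edgeR.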
